A study of Mus musculus with 6 samples.

Results

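The 10 genes described here encode the enzymes that turn arachidonic acid into prostaglandins, thromboxane and leukotrienes: Ptgs1, Ptgs2, Ptges, Hpgds, Tbxas1, Alox5, Alox5ap, Ltc4s, Lta4h and Alox15. They were chosen by symbol for their place in the pathway, and all 10 were found among the 30587 rows of a table of RNA-seq read counts. KO libraries (3) came from bone-marrow-derived dendritic cells (BMDCs) of C57BL/6 mice with the CD11c-Cre transgene and floxed alleles of Hif2a, whose official symbol is Epas1. WT libraries (3) came from BMDCs of mice with the same floxed alleles and without the transgene. All 6 cultures had been kept for 24 h with dimethyloxalylglycine (DMOG), which stabilises HIF-2α, and then for 4 h with α-galactosylceramide, so no untreated cells serve as a baseline here. CD11c-Cre acts in cells that express CD11c, and other cells in a culture may keep the gene. Nothing in the labels ties a numbered library to an animal or culture of its own. The p-values therefore reflect only how these 6 libraries vary, and part of that variation may be technical.

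Eicosanoids are short-lived signalling lipids made from arachidonic acid that phospholipases free from membranes. Cyclooxygenases convert it to prostaglandin H2, which terminal synthases turn into prostaglandin E2, prostaglandin D2 or thromboxane A2. In the other branch, 5-lipoxygenase and its helper protein make leukotriene A4, which is then hydrolysed to leukotriene B4 or joined to glutathione as leukotriene C4. In dendritic cells these lipids are known to act on maturation, migration and cytokine output, with prostaglandin E2 and the cysteinyl leukotrienes the best studied.

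Because the cells differ in a hypoxia-inducible factor, the promoters of the genes were searched for the core letters of the hypoxia response element, ACGTG and GCGTG, on both strands. The windows run from 250 bases before to 50 bases after the RefSeq start of each gene (GRCm38.p6, the mm10 build). A window was held for 8 of the 10 genes, all but Alox5ap and Alox15. Those of Ptgs2 and Ptges held a core, which is 2 of 8, and 43.8% of all 32851 promoter windows held at least 1. These windows are printed with those of Tbxas1 and Alox5, the genes whose RNA level changed in KO cells. Capitals mark the cores. In Ptgs2 the letters CACGTG read as ACGTG on both strands and count as 2 overlapping matches beside 1 GCGTG.
Ptgs2 (chr1:150099781-150100080, plus strand): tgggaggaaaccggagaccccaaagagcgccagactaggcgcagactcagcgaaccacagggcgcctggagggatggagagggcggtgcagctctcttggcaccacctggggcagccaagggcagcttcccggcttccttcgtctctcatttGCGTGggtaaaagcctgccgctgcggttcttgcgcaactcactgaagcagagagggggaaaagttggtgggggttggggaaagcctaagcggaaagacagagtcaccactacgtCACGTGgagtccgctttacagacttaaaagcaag
Ptges (chr2:30903248-30903547, minus strand): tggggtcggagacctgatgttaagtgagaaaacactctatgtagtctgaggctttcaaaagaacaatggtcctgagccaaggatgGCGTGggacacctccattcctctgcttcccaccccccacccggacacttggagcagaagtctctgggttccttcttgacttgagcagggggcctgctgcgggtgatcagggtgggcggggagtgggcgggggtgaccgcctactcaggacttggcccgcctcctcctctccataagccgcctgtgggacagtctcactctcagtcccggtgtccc
Tbxas1 (chr6:38918736-38919035, plus strand): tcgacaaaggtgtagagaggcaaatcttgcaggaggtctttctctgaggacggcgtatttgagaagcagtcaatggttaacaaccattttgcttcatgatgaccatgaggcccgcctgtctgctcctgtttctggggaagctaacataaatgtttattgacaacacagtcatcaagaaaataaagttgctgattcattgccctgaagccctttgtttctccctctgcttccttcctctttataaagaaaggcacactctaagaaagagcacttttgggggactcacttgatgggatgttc
Alox5 (chr6:116461129-116461428, minus strand): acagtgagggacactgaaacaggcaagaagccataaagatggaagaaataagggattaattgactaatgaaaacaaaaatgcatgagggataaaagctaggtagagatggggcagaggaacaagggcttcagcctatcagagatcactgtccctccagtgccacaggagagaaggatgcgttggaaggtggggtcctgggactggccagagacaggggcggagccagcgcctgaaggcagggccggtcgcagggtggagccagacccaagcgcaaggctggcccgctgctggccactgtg
The windows of Tbxas1 and Alox5 held neither set of letters, and neither did those of Ptgs1, Hpgds, Ltc4s and Lta4h. The windows of Tbxas1 and Ptges sit at the RefSeq start, which lies inside the gene as GENCODE draws it, and the outermost GENCODE starts of these genes were not searched. A match is a string of letters, not a measured binding site, and no binding data were analysed here.

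Total counts ran from 16826800 to 17884160 reads in KO libraries and from 14668641 to 17041448 reads in WT libraries. Values are CPM, the read count over the depth of its library after scaling with TMM factors, brought to a common depth. Fold changes are KO over WT on the log2 scale, fitted with edgeR's quasi-likelihood test over all 13249 rows with enough reads. A gene was called changed at a Benjamini-Hochberg adjusted p under 0.05 over those rows. Epas1, the targeted gene (chromosome 17, 86753700 to 86833410, plus strand, mm10), had 9.59, 12.7 and 11.5 CPM in KO libraries, against 20.0, 22.8 and 23.8 CPM in WT libraries. Its log2 fold change was -0.98 ± 0.12 (SE; edgeR adjusted p = 3.45e-05). Counts are per gene, so the exons behind the remaining KO reads are not known. The extent of the deletion was not tested. Of the 10 dendritic cell markers listed, all passed the count filter, among them Itgax, the gene of CD11c, at 179 CPM in KO and 205 CPM in WT cells on average. These markers went both ways, since Flt3, Zbtb46, Ccr7 and Irf8 rose, Cd74, H2-Ab1 and Irf4 fell, and Itgax, Itgam and Batf3 did not pass. Their part in the enzyme values was not tested. WT 2 had reads in more rows (25408) than any other library (18763 to 22275), followed by KO 1 with 22275. T, NK and B cell markers were near 0, at 0.439 to 1.36 CPM in KO and 0.591 to 1.88 CPM in WT libraries summed over 7 genes.

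The thromboxane synthase gene Tbxas1 and the 5-lipoxygenase gene Alox5 were lower in KO cells, and no enzyme gene was called higher. Of the 9 genes with enough reads to be tested, 2 fell and 7 did not pass, where 25.8% of all tested genes were called changed in either direction (12.0% lower and 13.8% higher). That 2 of 9, or 22.2%, is close to the background share. The count of 0 genes called higher was the same with the DESeq2 Wald test and limma-voom. At an unadjusted edgeR p under 0.05, 1 gene was higher (Hpgds) and 3 were lower (Tbxas1, Alox5 and Alox5ap). At that looser threshold, 2559 of all 13249 tested genes were higher and 2374 were lower, so such counts are common in these data. KO and WT libraries did not overlap for 3 of the 9 genes, Tbxas1, Alox5 and Hpgds, where 40.4% of all tested genes had groups apart (20.5% with KO higher and 20.0% with KO lower). The median log2 fold change of the 9 genes was -0.18, and that of all tested genes was -0.01. In bulk RNA, fewer cells of a type and less RNA per cell cannot be told apart.

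**Figure D1:**
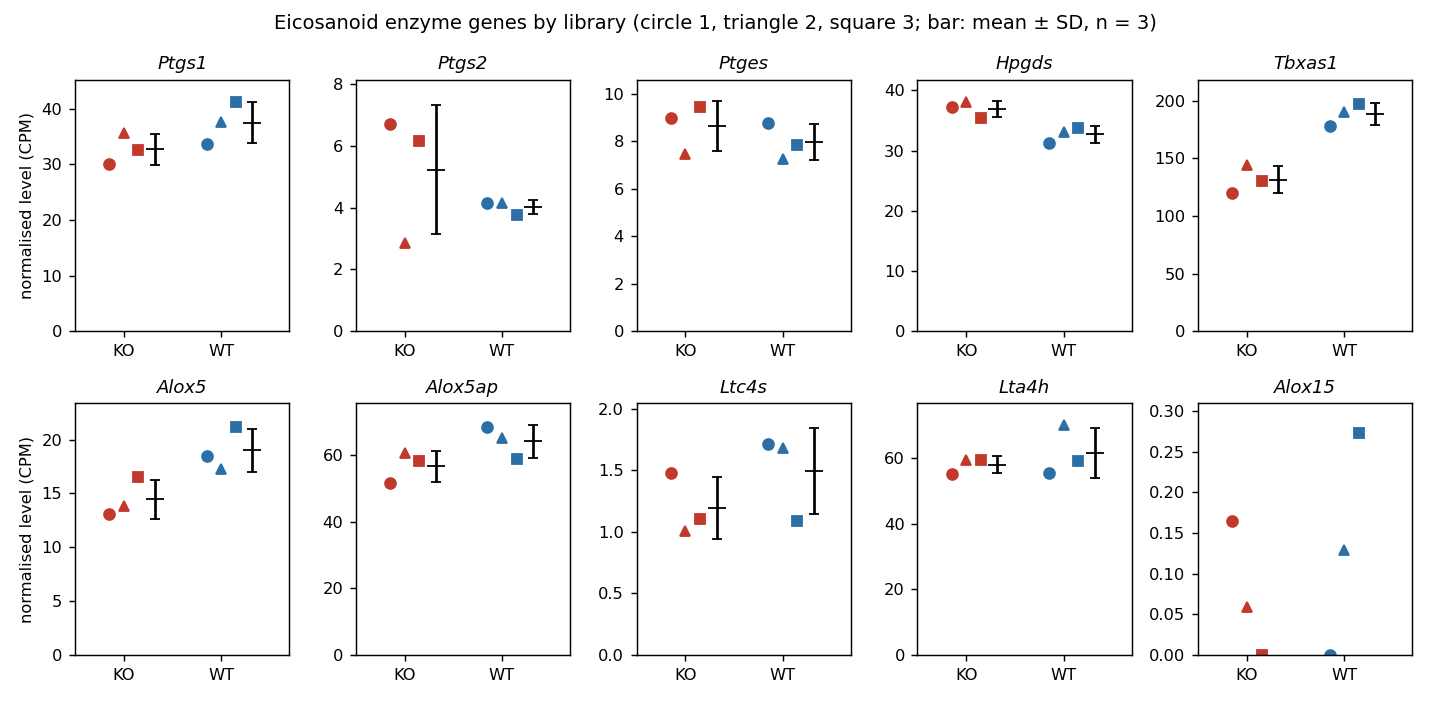
Normalised level (CPM, linear axis from 0) of the 10 enzyme genes in each KO and WT library. Symbols give the replicate number and bars the mean ± SD of 3 libraries, drawn for all but Alox15. Tbxas1 and Alox5 lie lower and Hpgds higher in every KO library than in any WT library, and the KO libraries of Ptgs2 spread from 2.84 to 6.69 CPM around a tight WT group.

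Cyclooxygenases stand at the head of the prostanoid branch. Ptgs1 encodes the constitutive enzyme COX-1 (chromosome 2, 36230426 to 36252272, plus strand). It had 30.0, 35.6 and 32.6 CPM in KO libraries, against 33.7, 37.6 and 41.3 CPM in WT libraries. KO 2 lay above WT 1, so the groups overlapped. The log2 fold change was -0.20 ± 0.09, and the gene did not pass (edgeR adjusted p = 0.136). Its 95% interval, from -0.39 to 0.0006, lies almost wholly below 0.

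Ptgs2 encodes the inducible enzyme COX-2, a classic target of inflammatory signals (chromosome 1, 150100031 to 150108227, plus strand). Libraries KO 1, KO 2 and KO 3 held 122, 48 and 106 reads, or 6.69, 2.84 and 6.15 CPM. WT libraries 1 to 3 held 70, 64 and 55 reads, or 4.14, 4.14 and 3.75 CPM. Thus KO 1 and KO 3 were above all WT libraries and KO 2 was below them all. The coefficient of variation was 39.8% among KO libraries and 5.63% among WT libraries, and in KO this was the widest of the 9 tested genes. The log2 fold change of 0.38 ± 0.26 did not pass (edgeR adjusted p = 0.302), with a 95% interval from -0.17 to 0.94. It turned on KO 2. Without that library the value was 0.68 and passed (edgeR adjusted p = 0.0102; 15 alternatives ran between 0.0102 and 0.697). Without KO 1 it was 0.17, and without KO 3 it was 0.26, neither past the threshold.

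The pattern of Ptgs2 over the 6 libraries was compared with that of every tested gene, as the root mean square difference of centred log2 CPM. The closest was Prr7 at 0.05, followed by Slc35g1 at 0.12 and Hdhd3 at 0.14. Prr7 averaged 1.93 ± 0.752 CPM in KO and 1.40 ± 0.0336 CPM in WT cells (SD, n = 3 each), and its log2 fold change of 0.47 did not pass either (edgeR adjusted p = 0.316). Likeness over 6 libraries is a description of these libraries.

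Terminal prostanoid synthases draw on the same prostaglandin H2. Tbxas1 encodes thromboxane A synthase (chromosome 6, 38875404 to 39084585, plus strand). It had 2195, 2439 and 2248 reads in KO libraries, which is 120, 144 and 130 CPM. WT libraries had 3015, 2939 and 2893 reads, which is 178, 190 and 197 CPM. All KO libraries lay below all WT libraries, with 131.7 ± 12.1 CPM in KO against 189 ± 9.59 CPM in WT cells (SD, n = 3 each). The gene fell by a log2 fold change of -0.52 ± 0.07, or 1.43-fold (edgeR adjusted p = 0.000172). It passed under all 15 alternatives run, with log2 fold changes between -0.59 and -0.45.

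Platelets are a known source of thromboxane synthase, so their markers are given beside this result. The 8 genes on the platelet and megakaryocyte list summed to 128 to 142 CPM in KO and 167 to 169 CPM in WT libraries. Of the 5 tested, Pf4 and Treml1 fell, Itga2b rose, and Ppbp and Gp1ba did not pass (edgeR adjusted p = 0.0583 and 0.738). Most of the sum was Pf4, a platelet chemokine gene, at 94.4 CPM in KO and 121 CPM in WT cells. The platelet receptor genes Gp9, Gp1bb and Gp6 were too low to test, at 23, 22 and 33 reads over all 6 libraries. The 10 macrophage markers, described with Alox5 below, summed to 4209 to 4619 CPM in KO and 4016 to 4246 CPM in WT libraries. Of these, 5 were called higher and 0 lower. The part of platelets or macrophages in the Tbxas1 values was not tested.

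Hpgds encodes the haematopoietic prostaglandin D synthase (chromosome 6, 65117293 to 65144908, minus strand). Its levels were 37.3, 38.1 and 35.4 CPM in KO libraries, against 31.2, 33.1 and 33.8 CPM in WT libraries. Groups were apart, with every KO library above every WT library, yet the log2 fold change of 0.18 ± 0.07 did not pass (edgeR adjusted p = 0.0943; 95% interval 0.02 to 0.33). It passed under 1 of 15 alternatives, the offset for GC content and exon length (0.22, edgeR adjusted p = 0.0256; the alternatives ran between 0.0256 and 0.274). Mast cells and basophils are known for this enzyme, and their 11 listed markers summed to 82.4 to 89.5 CPM in KO and 51.2 to 58.0 CPM in WT libraries. Of the 5 tested, Kit, Gata2, Mcpt8 and Prss34 rose and Cpa3 did not pass (edgeR adjusted p = 0.0515). Kit, also a gene of progenitor cells, made up most of the sum at 73.9 CPM in KO and 48.8 CPM in WT cells. Mcpt8 and Prss34 rested on 73 and 150 reads over all libraries. Fcer1a, Ms4a2 and Hdc had 2, 13 and 50 reads and were not tested. The mast cell protease genes Cma1, Tpsb2 and Mcpt4 had 1 read each over all libraries. The part of these cells in the Hpgds values was not tested.

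Thromboxane and prostaglandin D synthase transcripts thus stood in a different proportion. Per base of the principal annotated transcript, Tbxas1 exceeded Hpgds by 5.64, 6.63 and 6.44 times in KO libraries and by 9.99, 10.05 and 10.2 times in WT libraries. The 2 genotypes were far apart in this ratio compared with their spread (6.23 ± 0.524 in KO and 10.1 ± 0.112 in WT, SD, n = 3 each). On the length of all annotated exons in union, the ratio was 2.28, 2.68 and 2.60 in KO libraries and 4.04, 4.06 and 4.13 in WT libraries. Its size thus depends on the length used. The relative gap between genotypes cannot depend on it, as each length is a constant divisor. The ratio was formed after the values of both genes were seen and carries no test.

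Ptges encodes the inducible microsomal prostaglandin E synthase (chromosome 2, 30889471 to 30929863, minus strand). It had 8.99, 7.46 and 9.45 CPM in KO libraries, against 8.75, 7.25 and 7.84 CPM in WT libraries. The groups overlapped. The log2 fold change of 0.12 ± 0.14 did not pass (edgeR adjusted p = 0.576), and its 95% interval runs from -0.18 to 0.41.

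In the leukotriene branch, Alox5 encodes 5-lipoxygenase, the enzyme that starts it (chromosome 6, 116410077 to 116461178, minus strand). KO libraries had 239, 233 and 285 reads, or 13.1, 13.8 and 16.5 CPM. WT libraries had 313, 267 and 311 reads, or 18.5, 17.3 and 21.2 CPM. The highest KO library, KO 3, was just below the lowest WT library, WT 2. Alox5 fell by a log2 fold change of -0.39 ± 0.11, or 1.31-fold (edgeR adjusted p = 0.0223). The call did not survive the loss of KO 1, KO 2, WT 1 or WT 3, with log2 fold changes of -0.32, -0.36, -0.40 and -0.30 and edgeR adjusted p between 0.058 and 0.0975. The range over all 15 alternatives was 0.0081 to 0.0975, and every value was negative.

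Neutrophils carry 5-lipoxygenase too. The 10 genes of the neutrophil list summed to 43.9 to 64.5 CPM in KO and 38.6 to 53.4 CPM in WT libraries, so the groups overlapped. Ngp and Camp rose and Cxcr2 fell among the 6 tested. Macrophage markers summed to 4209 to 4619 CPM in KO and 4016 to 4246 CPM in WT libraries, and 5 of the 10 rose. Whether either population bears on Alox5 was not tested.

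Genes closest to Alox5 over the 6 libraries were Nqo1, for a quinone reductase, at a root mean square difference of 0.0518 in centred log2 CPM, Phkb, for a phosphorylase kinase subunit, at 0.0520, and the zinc transporter gene Slc39a8 at 0.0554. Nqo1 averaged 26.7 ± 2.10 CPM in KO and 34.8 ± 2.37 CPM in WT cells (SD, n = 3 each) and fell by a log2 fold change of -0.38 (edgeR adjusted p = 0.00583). Phkb fell by -0.40 (edgeR adjusted p = 0.00554), whereas Slc39a8, at -0.39, did not pass (edgeR adjusted p = 0.109).

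Alox5ap encodes FLAP, the membrane protein that presents arachidonic acid to 5-lipoxygenase (chromosome 5, 149264767 to 149288153, plus strand). Its levels were 51.5, 60.5 and 58.2 CPM in KO libraries, against 68.5, 65.2 and 58.8 CPM in WT libraries. KO 2 was above WT 3, so the groups overlapped. The log2 fold change was -0.18 ± 0.08 and did not pass (edgeR adjusted p = 0.104; 95% interval -0.34 to -0.01).

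Lta4h encodes leukotriene A4 hydrolase, which makes leukotriene B4 (chromosome 10, 93453411 to 93484875, plus strand). It had 55.2, 59.6 and 59.4 CPM in KO libraries, against 55.5, 70.2 and 59.2 CPM in WT libraries. WT 2 alone stood above the rest. The log2 fold change of -0.09 ± 0.08 did not pass (edgeR adjusted p = 0.486; 95% interval -0.26 to 0.09), and without WT 2 it was 0.02.

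Ltc4s encodes leukotriene C4 synthase (chromosome 11, 50236461 to 50238616, minus strand). It had 27, 17 and 19 reads in KO libraries and 29, 26 and 16 reads in WT libraries, or 1.48, 1.01 and 1.10 CPM against 1.72, 1.68 and 1.09 CPM. At this depth the log2 fold change of -0.32 ± 0.30 has a 95% interval from -0.98 to 0.33, so changes of either sign are within it (edgeR adjusted p = 0.476).

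Alox15 encodes the 12/15-lipoxygenase (chromosome 11, 70344152 to 70352031, minus strand). It had 3, 1 and 0 reads in KO libraries and 0, 2 and 4 reads in WT libraries. That is 10 reads over all libraries, too few for a test or a fold change. Its RNA was barely detectable at this depth in either genotype.

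**Figure D2:**
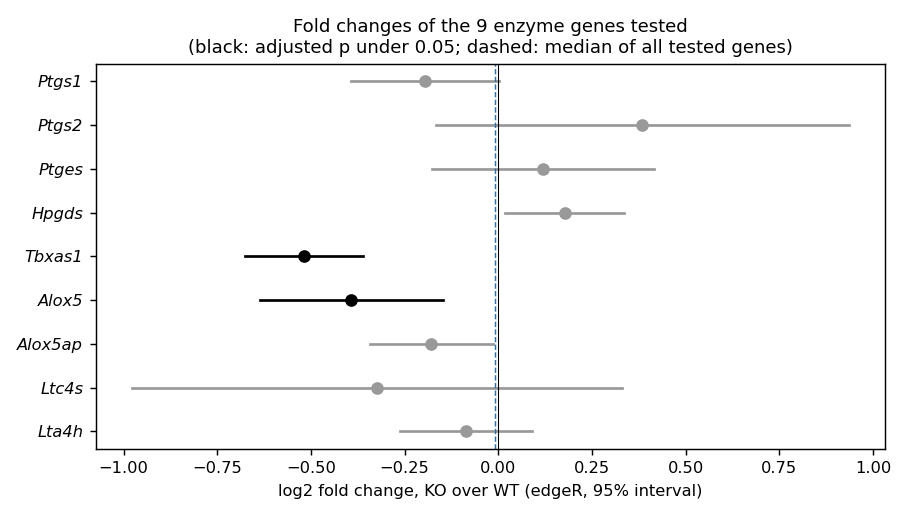
Log2 fold change (KO over WT) of the 9 enzyme genes tested, with edgeR 95% intervals. The 2 genes in black passed at an adjusted p under 0.05, Tbxas1 at -0.52 and Alox5 at -0.39. The intervals of Ptgs2 and Ltc4s, the genes with fewest reads among the 9, are the widest.

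Levels of different genes were compared per kb of each gene's principal GENCODE M21 transcript. In KO cells the order was Tbxas1 at 66.2 ± 6.09 CPM per kb, Alox5ap at 45.4 ± 3.73, Lta4h at 28.6 ± 1.22, Ptgs1 at 11.4 ± 0.979, Hpgds at 10.6 ± 0.400 and Alox5 at 5.13 ± 0.642 CPM per kb (SD, n = 3). Below them came Ptges at 2.37 ± 0.286, Ltc4s at 1.84 ± 0.386 and Ptgs2 at 1.17 ± 0.467 CPM per kb. Neighbours in this order did not overlap between libraries, except Ptgs1 with Hpgds and Ptges with Ltc4s. WT cells had the same first 6 places, with Tbxas1 at 94.8 ± 4.82, Alox5ap at 51.3 ± 3.95, Lta4h at 30.4 ± 3.77, Ptgs1 at 13.1 ± 1.32, Hpgds at 9.40 ± 0.386 and Alox5 at 6.74 ± 0.711 CPM per kb. There Ltc4s at 2.31 ± 0.542 overlapped Ptges at 2.18 ± 0.207 CPM per kb. Ptgs2 was again the ninth gene, at 0.901 ± 0.0507 CPM per kb.

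The head of this order rests on the length used. GENCODE lists 7 transcripts of Tbxas1, some with retained introns, and its exons cover 9094 bases in union against 1990 bases in the principal transcript. On the union length Alox5ap led, at 40.0 ± 3.29 CPM per kb in KO and 45.2 ± 3.48 CPM per kb in WT cells. Tbxas1 was then second, at 14.5 ± 1.33 CPM per kb in KO and 20.7 ± 1.05 CPM per kb in WT cells. The fold change between genotypes does not depend on that length.

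**Figure D3:**
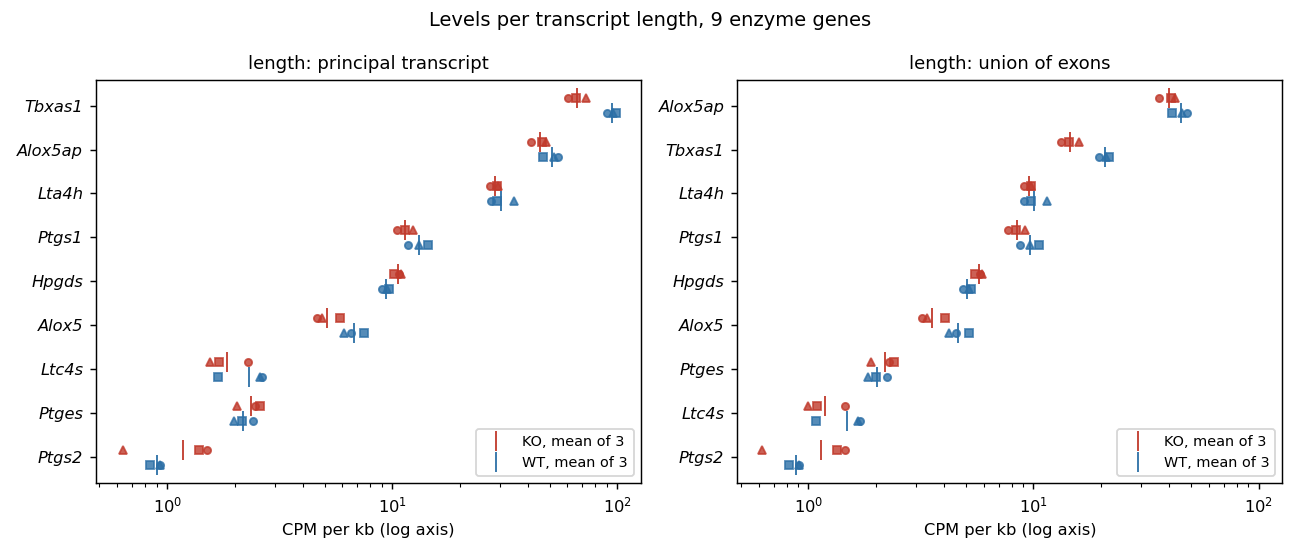
Level per kb of transcript (CPM per kb, log axis) of the 9 tested enzyme genes in KO and WT libraries. Points are libraries and ticks their means, with the length taken from the principal transcript on the left and from the union of exons on the right. Tbxas1 leads on the left at 66.2 CPM per kb in KO and 94.8 CPM per kb in WT cells, and Alox5ap leads on the right.

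Together the 10 genes held 161, 183 and 174 CPM per kb in KO libraries and 205, 217 and 212 CPM per kb in WT libraries, on the principal transcript length. Tbxas1 made up 38.3% ± 1.23 of that sum in KO and 44.9% ± 1.69 in WT cells (SD, n = 3 each). On the union length Tbxas1 came second to Alox5ap in both genotypes, so these shares depend on the length used. Hpgds held 6.16% ± 0.438 in KO and 4.45% ± 0.118 in WT cells. The share of Alox5 was 2.97% ± 0.351 in KO and 3.19% ± 0.361 in WT cells, within the spread. Shares add to a whole, so a lower Tbxas1 value raises the shares of the other genes. By its own CPM Hpgds did not pass, and Alox5 was called lower. Cyclooxygenase RNA was mostly Ptgs1, and per kb Ptgs2 amounted to 0.144, 0.0514 and 0.121 of it in KO libraries and to 0.0791, 0.0709 and 0.0585 in WT libraries. These sums and shares were formed with the gene values in view and have no test.

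Other genes of eicosanoid metabolism and signalling came from 6 lists of 69 gene symbols, of which 67 were in the table and 42 had enough reads. Among the 42, 6 fell and 2 rose (14.3% and 4.76%), against 12.0% and 13.8% of all tested genes. Their median log2 fold change was -0.08.

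Arachidonate release and remodelling was represented by 10 tested genes, none of which was called in either direction. The same held with the DESeq2 Wald test and limma-voom, and 0 had an unadjusted edgeR p under 0.05. The 3 with the lowest p were Lpcat3, an acyltransferase that puts arachidonate into phospholipids (0.12 ± 0.07), Pla2g7, a platelet-activating factor hydrolase (-0.12 ± 0.07), and Pla2g12a (-0.20 ± 0.13). Pla2g7 passed without KO 1 (-0.21) and without WT 2 and KO 1 (-0.20). Pla2g4a, the cytosolic phospholipase A2 that frees arachidonate, had 15.1 ± 0.647 CPM in KO and 15.9 ± 1.69 CPM in WT cells (SD; edgeR adjusted p = 0.632) and was named for its role.

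Among 6 other prostanoid synthases, the carbonyl reductase genes Cbr3 and Cbr1 fell. Cbr1 is able to reduce prostaglandin E2, and both enzymes reduce many other carbonyl compounds. Cbr3 was 1.46-fold lower, at 22.9 ± 1.09 CPM in KO and 33.4 ± 1.48 CPM in WT cells (log2 fold change -0.55 ± 0.08; edgeR adjusted p = 0.00025). Cbr1 was 1.28-fold lower (-0.36 ± 0.11; edgeR adjusted p = 0.0286), but it did not pass without KO 1, KO 3, WT 1 or WT 2 (-0.30, -0.39, -0.29 and -0.30), nor without WT 2 and KO 1 (-0.25). Ptges3, for the cytosolic prostaglandin E synthase and heat shock protein partner p23, was at -0.15 ± 0.07 and did not pass, and it passed without KO 1 (-0.22).

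The list of other lipoxygenases and leukotriene steps had 7 tested genes, and Mgst1 and Mgst3 fell. They encode microsomal glutathione transferases, in the same protein family as Alox5ap, Ltc4s and Ptges, and act mainly in detoxification and peroxide reduction. Mgst3 had 19.6 ± 0.912 CPM in KO and 34.1 ± 2.90 CPM in WT cells, 1.74-fold lower (-0.80 ± 0.09; edgeR adjusted p = 2.11e-05). Mgst1 had 82.2 ± 3.43 CPM in KO and 126 ± 11.2 CPM in WT cells, 1.53-fold lower (-0.62 ± 0.07; edgeR adjusted p = 1.90e-05). Cotl1, for a protein that binds 5-lipoxygenase, was at -0.09 ± 0.05 and did not pass. Alox12 had 72 reads in all and did not pass, and Alox12b, Alox8, Aloxe3 and Alox12e were too low to test.

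Of 5 tested genes of the epoxygenase and hydrolase branch, Ephx1, the microsomal epoxide hydrolase gene, fell 1.295-fold (-0.37 ± 0.08; edgeR adjusted p = 0.00288). Cyp2j6 (-0.51 ± 0.20) and Cyp4f16 (-0.20 ± 0.07), of the cytochrome P450 superfamily, did not pass. For Cyp4f16 that changed without KO 2 (-0.25) and with the offset for GC content and exon length (-0.22).

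Inactivation and transport had 5 tested genes. Ptgr1, for a reductase that inactivates leukotriene B4 and oxidised prostaglandins, had 60.5 ± 1.41 CPM in KO and 109 ± 12.0 CPM in WT cells, and fell 1.81-fold (-0.85 ± 0.07; edgeR adjusted p = 2.03e-06). This was the largest change among the 42 genes by log2 fold change. Slco3a1, for an organic anion transporter that carries prostaglandins, rose 1.24-fold (0.31 ± 0.09; edgeR adjusted p = 0.0236). It did not pass with the DESeq2 Wald test (0.31), without a count filter (0.32), without KO 2, KO 3, WT 2 or WT 3 (0.30, 0.29, 0.30 and 0.30) or without WT 2 and KO 1 (0.33). Ptgr2, a related reductase gene, was at -0.19 ± 0.09 and did not pass. Hpgd, for the dehydrogenase that starts prostaglandin breakdown, had 31 reads over all libraries and was not tested.

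Of 9 tested receptor genes, Ptger4, for the prostaglandin E2 receptor EP4, rose 1.17-fold, with 82.1 ± 6.26 CPM in KO and 70.3 ± 0.796 CPM in WT cells (0.22 ± 0.06; edgeR adjusted p = 0.0195). The call was lost without KO 1, KO 3, WT 1 or WT 2 (0.16, 0.24, 0.23 and 0.22) and without WT 2 and KO 1 (0.15). Ptgir, the prostacyclin receptor gene, was at -0.21 ± 0.09 and Pparg, for a nuclear receptor that binds prostaglandin metabolites, at 0.24 ± 0.11, and neither passed. Ptgir passed without KO 2 (-0.31), with no count filter (-0.20) and with the offset for GC content and exon length (-0.26). Pparg passed without KO 1 (0.33), with no count filter (0.26) and without WT 2 and KO 1 (0.35). The thromboxane receptor gene Tbxa2r had 0 reads in KO libraries and 9 reads in WT libraries in all, below what the count filter needs.

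**Figure D4:**
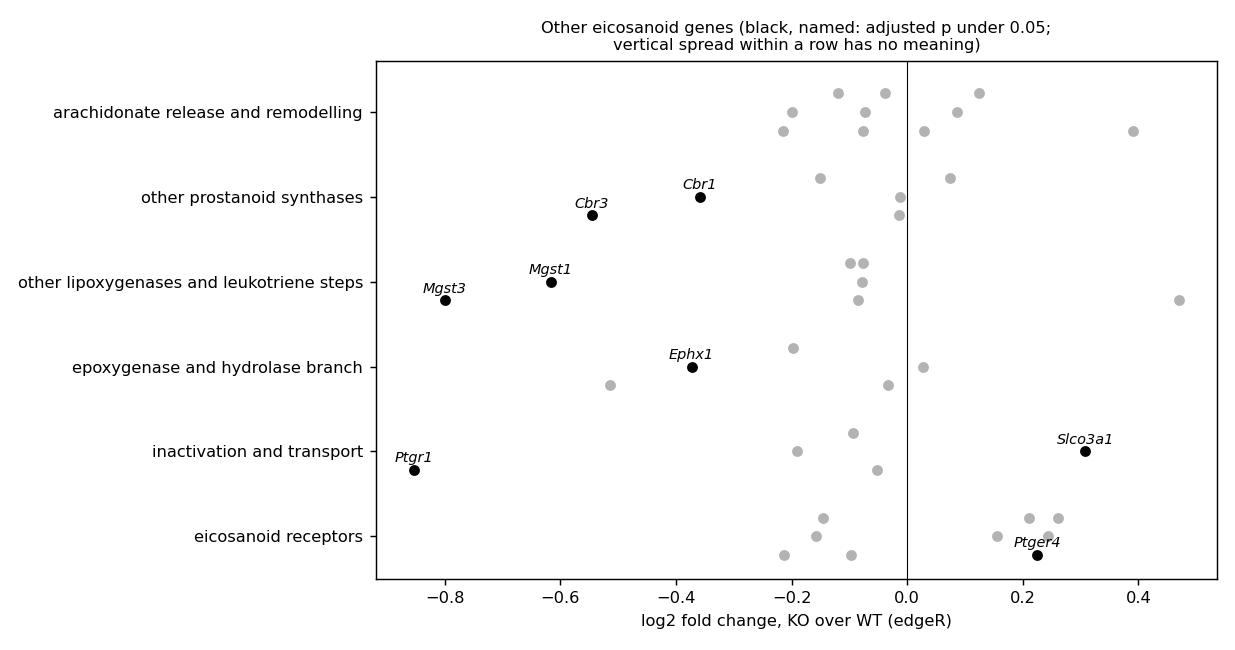
Log2 fold change (KO over WT) of the 42 other eicosanoid genes with enough reads, by list. Black points with names passed at an adjusted p under 0.05, 6 lower in KO (Ptgr1 lowest at -0.85) and 2 higher (Slco3a1 and Ptger4).

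Some exons of the enzyme genes overlap other annotated transcripts on the opposite strand, and whether reads were counted by strand is not given in the sources used here. Ltc4s shares 268 bases with Gm26542, which had 29 reads over all libraries. Alox5ap shares 189 bases with Gm19719 (62 reads), Ptgs1 148 bases with Gm43621 (7 reads) and Tbxas1 144 bases with Gm42962 (10 reads). For Ptgs2, Ptges, Hpgds, Alox5, Lta4h and Alox15 no shared exon bases were annotated.

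**Figure D5:**
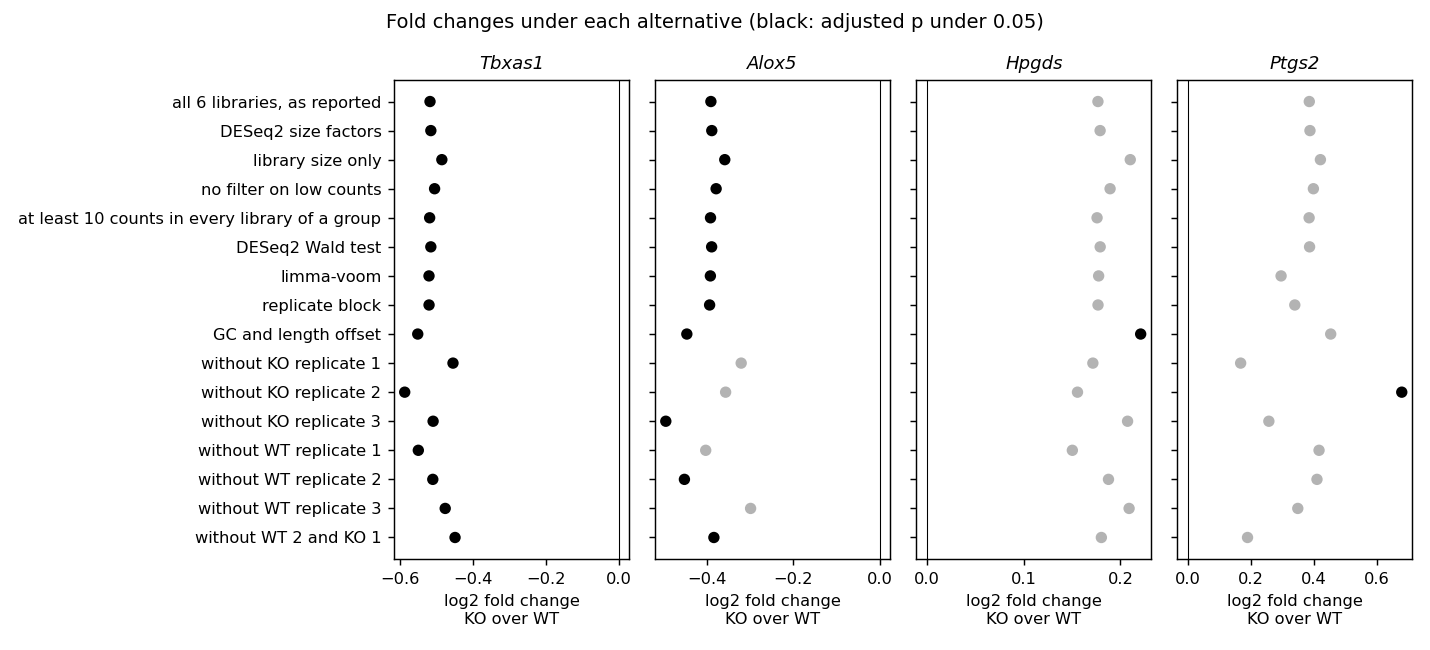
Log2 fold change (KO over WT) of Tbxas1, Alox5, Hpgds and Ptgs2 with all 6 libraries and under 15 alternatives. Black points passed at an adjusted p under 0.05. Tbxas1 passed in every setting, Alox5 in all but 4 that leave out 1 library, Hpgds with the offset for GC content and exon length, and Ptgs2 without KO 2.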

How the data were processed

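RNA was extracted with Trizol and libraries followed Illumina protocols, per the labels' protocols. The authors deposited raw read counts per gene symbol, which are whole numbers and not normalized. The submitters' processing notes name the build mm10 and TopHat2, HISAT2, HISAT, SAMtools, DESeq2 and HTSeq as tools. Any version, annotation, strand setting or rule for multi-mapped reads is not given in the sources used here.

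For 23 repeated symbols (47 rows) the row with most reads kept the name. Rows were filtered with filterByExpr (minimum count 10), which kept 13249 and left out 17338. Counts were scaled with TMM and tested with edgeR 4.0.16 in R 4.3.3, genotype being the only term. Alternatives were DESeq2 size factors, library size only, 2 other count filters, DESeq2 1.42.0, limma-voom (limma 3.58.1), the replicate number as a block and each library left out. A fit that drops WT 2 and KO 1, and one with offsets for exon length and GC content, were chosen after seeing the data. The main fit was also run on counts simulated from the tested genes, and the outcome is not given here. The SE is the log2 fold change divided by the square root of F. With 3 against 3 libraries, exact permutation cannot go below p = 0.10, so p-values rest on the model. Coordinates and lengths are from GENCODE M21, and promoter sequences from RefSeq.

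Enzymes and lists were chosen with earlier results of these data known. Named genes were all enzymes, Epas1, the 3 genes of lowest p per list and the 3 closest to Ptgs2 and Alox5. Others, marker genes among them, were chosen after values were seen.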

Additional observations from a re-analysis of the deposited data

How the results depend on the processing

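Over all tested genes the calls numbered 1826 higher and 1586 lower. Leaving out 1 library gave 1182 to 1992 higher and 945 to 1622 lower, with fewest without KO 3 (1182 and 945) and 1027 lower without WT 1. Scaling to library size only moved the share of higher calls to 62.3%, against 53.5%, and the median log2 fold change to 0.02. Among the enzymes, 0 were called higher and 2 lower. With 1 library left out, 0 to 1 were higher and 1 to 2 lower, and 1 was higher with the GC and length offset. Of the other eicosanoid genes, 2 were higher, with a range of 0 (without KO 3 or WT 2) to 2 when 1 library was left out, 1 with the DESeq2 Wald test, 1 without WT 2 and KO 1 and 3 with the GC and length offset. Of these genes 6 were lower, with a range of 5 to 9 when 1 library was left out (9 without KO 2) and 8 with the GC and length offset. Lta4h, which never passed, changed sign without WT 2 (0.020) and without WT 2 and KO 1 (0.055), and ran from -0.15 to 0.020 with 1 library left out. With the replicate block, 1741 genes were higher and 1506 lower, and it changed no call among the enzymes (Tbxas1 -0.52, Alox5 -0.39). No pairing by replicate number was seen. Deviations of same-numbered libraries correlated at 0.01, -0.11 and 0.08, and those of differently numbered libraries at -0.21 to 0.18. With 3 libraries per genotype these values cannot exclude pairing. Fewest reads lay behind Alox15, Ltc4s and Ptgs2 among the enzymes, at 10, 134 and 465 in all, and for Ptgs2 the KO libraries also varied more (39.8%) than the WT libraries (5.63%).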

Other observations

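Ptgs2os2, a long non-coding RNA gene on the opposite strand beyond the end of Ptgs2 and sharing no exon with it, was looked at after the values of Ptgs2 were seen. It had 19, 2 and 11 reads in KO libraries 1 to 3 and 9, 7 and 7 reads in WT libraries 1 to 3, too few for the count filter. As for Ptgs2, KO 1 and KO 3 lay above all WT libraries and KO 2 below them all. Ptgs2os, which starts on the other side of the Ptgs2 promoter, had 2, 1 and 0 reads in KO libraries and 0 in each WT library.

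Low-count genes of the pathway that were not tested include secreted phospholipase genes. Pla2g5 had 0.870 ± 0.406 CPM in KO and 0.491 ± 0.0852 CPM in WT cells, and Pla2g2d had 0.268 ± 0.0427 CPM in KO and 0.608 ± 0.267 CPM in WT cells (SD, n = 3 each). The soluble epoxide hydrolase gene Ephx2 had 0.266 ± 0.0817 CPM in KO and 0.622 ± 0.130 CPM in WT cells, and the prostaglandin dehydrogenase gene Hpgd 0.117 ± 0.104 CPM in KO and 0.542 ± 0.214 CPM in WT cells. These values rest on 31 to 68 reads per gene over all 6 libraries. The genes were picked after their values were seen, and other untested genes of the pathway differed less. Aloxe3, for example, had 0.270 ± 0.0970 CPM in KO and 0.316 ± 0.0979 CPM in WT cells.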
